A study of Lentinus brumalis with 11 samples.

Results

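The late stage of solid-state fermentation (SSF) of wheat straw by the white-rot fungus *Polyporus brumalis* was described by comparing mycelium at Day 15 with mycelium at Day 10. The comparison took 6 of the 11 RNA sequencing libraries of the study, 3 from Day 10 and 3 from Day 15, chosen by the time point in their labels, and asked which of the 18244 predicted genes still changed between both days. All libraries came from the dikaryotic strain BRFM 985. After a preliminary liquid culture on malt extract, the ground mycelium was mixed with sterilized wheat straw and a solution of copper, iron and manganese sulfates, and was grown without free water in aerated glass columns until Day 4, 10 or 15. The other 5 libraries were 2 from Day 4 of SSF and 3 from a control grown in liquid malt extract for 10 days. They served to estimate the spread and to describe what a gene had done earlier. The study calls the cultures biological replicates, and no source used here states what a replicate number marks. The reference genome was that of a monokaryon descended from the strain grown. RNA was extracted from colonized straw in bulk, so fewer hyphae of a kind and less RNA in each of them cannot be told apart.

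White-rot fungi remove lignin with secreted oxidative enzymes that carbohydrate-active enzyme (CAZyme) classification groups as auxiliary activities (AA). Class II peroxidases (AA2) such as versatile peroxidases (VPs) and manganese peroxidases (MnPs) oxidize lignin or manganese with hydrogen peroxide, which copper radical oxidases (AA5_1) and several GMC oxidoreductases (AA3) produce. Cellulose and hemicelluloses are opened by glycoside hydrolases (GH), carbohydrate esterases (CE) and lytic polysaccharide monooxygenases (LPMOs, AA9).

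Total counts were 22644347, 23650391 and 22997921 at Day 10 and 20368063, 22372450 and 36542662 at Day 15, and 15836 to 15979 genes had a count in each of these libraries. The third Day 10 replicate stood apart. Spearman's rho across genes between it and each Day 15 library lay between 0.970 and 0.974, where the remaining Day 10 replicates reached 0.981 to 0.988. It was nearer to Day 4, with 0.958 and 0.961 where they had 0.949 to 0.954. It was also nearer to the liquid control, with 0.904 to 0.910 where they had 0.892 to 0.900. It had the highest level of the Day 10 libraries in 61.9% of the genes that were lower at Day 15 and the lowest level in 67.4% of those that were higher, against 35.2% and 37.1% of all genes tested. Values without it are given beside some of the results that it moved, not all. For example, the log2 fold change of AA3 gene 1422328 was -1.78 with it and -1.33 without it. That of gene 1409925 was 2.12 with it and 1.74 without it. The median SD of a gene's log2 normalized read count was 0.22 at Day 10 and 0.14 at Day 15.

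Of 15462 genes tested with edgeR's quasi-likelihood test, 1810 (11.7%) were higher at Day 15 and 1915 (12.4%) were lower, at an adjusted p of at most 0.05. Together these were 24.1% of the genes tested, and 11737 were not called. Both days did not overlap in 99.1% of the genes called higher. The same held for 96.3% of those called lower, so such separation adds little to a call. Most changes were small. The median log2 fold change was 0.61 among the genes that rose and -0.63 among those that fell, beside -0.0021 over all genes tested. Past 1 on the log2 scale, 291 genes rose (1.88% of those tested) and 466 fell (3.01%). Past 3 on that scale, 3 genes rose and 25 fell. When the test itself required a change above 1 (log2), 14 rises and 77 falls were called. With the genes ranked by level into 4 equal classes, 20.4% rose and 20.4% fell in the highest class, against 3.54% and 3.44% in the lowest, where the called changes had medians of 1.14 and -1.14. Without the third Day 10 replicate, 1522 genes rose and 1738 fell, of which 1392 and 1537 were also called with it. Without the second Day 15 replicate, the counts fell to 1154 and 1200.

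**Figure D1:**
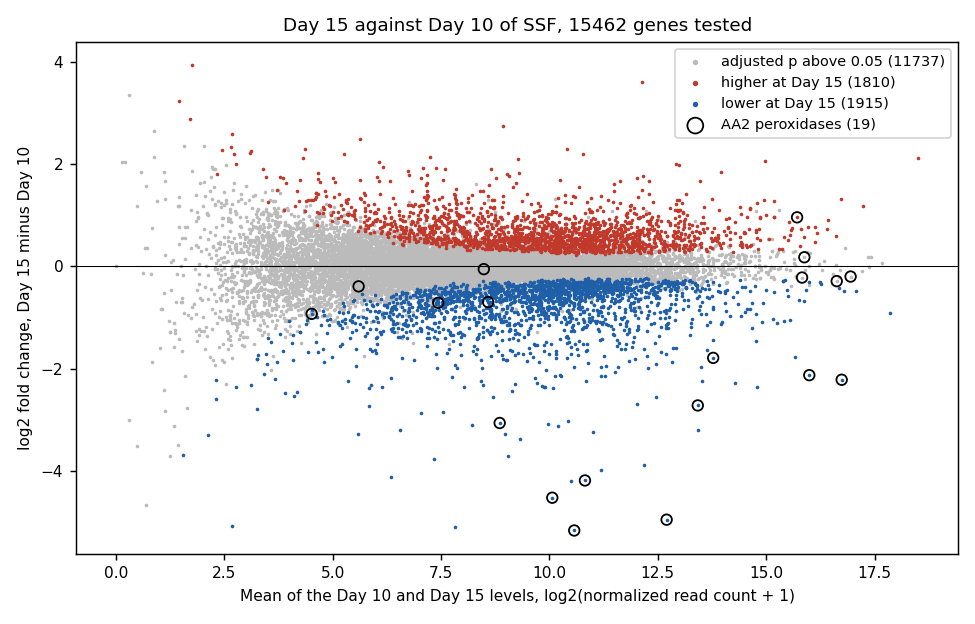
Log2 fold change of each gene tested between Day 15 and Day 10 (vertical axis) against the mean of its Day 10 and Day 15 levels as log2 normalized read counts (horizontal axis), with 1 point a gene. The 1810 genes that rose are red and the 1915 that fell are blue, and the circled AA2 peroxidases include several of the largest falls among genes with high levels.

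What a gene had done earlier was taken from the contrast of Day 4 of SSF with the control. No library enters the means of both contrasts, but both were fitted together and share each gene's estimate of the spread, so their calls are not fully independent. Of the 4650 genes that had been higher at Day 4 than in the control (30.1% of those tested), 1042 fell from Day 10 to Day 15 (22.4%) and 394 rose (8.47%). Of the 4986 that had been lower at Day 4 (32.2%), 391 fell (7.84%) and 977 rose (19.6%). Among the 5826 genes not called between Day 4 and the control, 8.27% fell and 7.54% rose. The late changes were thus more often opposite in direction to the early change than in the same direction, in both classes. Without the third Day 10 replicate, 20.7% and 6.75% of the genes that had been higher at Day 4 fell and rose, and 7.36% and 17.9% of those that had been lower. Without the second Day 15 replicate, 14.8% of the genes that had been higher at Day 4 fell and 5.04% rose, and 5.03% of those that had been lower at Day 4 fell and 13.9% rose.

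**Figure D2:**
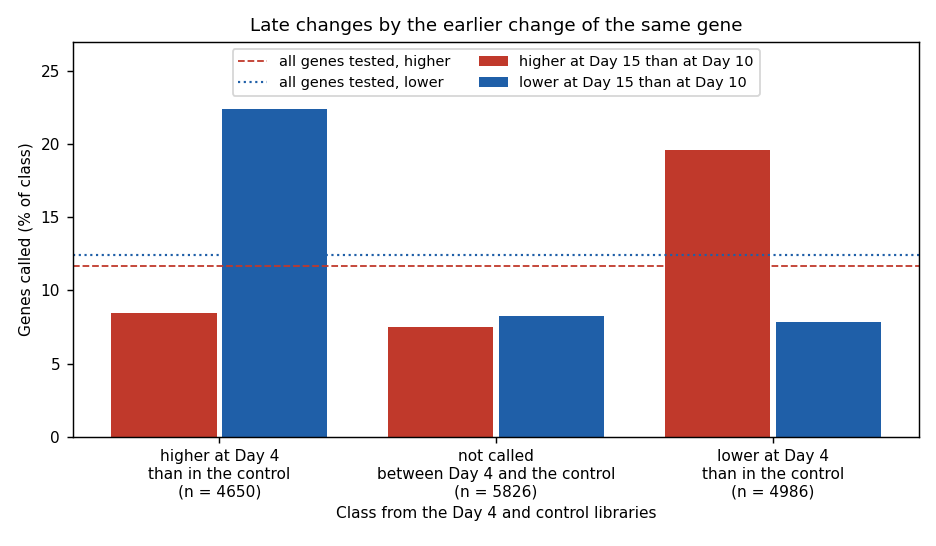
Percentage of genes (vertical axis) that were higher (red) or lower (blue) at Day 15 than at Day 10, in 3 classes set by the Day 4 and control libraries (horizontal axis). Genes that had been higher at Day 4 fell in 22.4% of cases and genes that had been lower rose in 19.6%, beside 12.4% and 11.7% of all genes tested, drawn as broken lines.

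Most AA2 peroxidase genes fell. Of 19 AA2 genes, all tested, 12 were lower at Day 15, beside 12.4% of all genes tested, 1 was higher, beside 11.7%, and 6 were not called. Their median log2 fold change was -0.93. Of the 9 VP genes, 7 fell (median -2.22) and none rose, and of the 9 short MnP genes, 5 fell and 1 rose (median -0.71). The single generic peroxidase gene, 1560842, is marked by the study as an N-terminal fragment. It had levels of 5.24 to 5.84 in the 6 libraries and was not called (adjusted p = 0.17). In each of the 12 genes that fell, all 3 Day 15 libraries were below all 3 Day 10 libraries, as was the case for 96.3% of the genes that fell in the whole table. Without the third Day 10 replicate, 14 AA2 genes fell and 1 rose.

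Among the VPs, whose enzymes oxidize lignin directly as well as through manganese, gene 1487275 carried the most counts of the AA2 family at Day 10. Its log2 normalized read counts were 17.46, 17.64 and 18.37 at Day 10 and 15.81, 15.58 and 15.59 at Day 15, a log2 fold change of -2.22 (SE 0.21, adjusted p = 2.7e-05). VP 1360396 was even between replicates, at 14.71, 14.72 and 14.91 at Day 10 and 12.12, 12.06 and 12.02 at Day 15 (log2 fold change -2.72, SE 0.12, adjusted p = 1.2e-07). VP 310665 went from 16.72, 16.74 and 17.62 to 15.04, 14.82 and 15.03 (-2.13, SE 0.21, adjusted p = 4.3e-05). In these 3 genes both days were apart by more than the whole spread within a day.

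VP genes 918032, 1110945 and 1359988 fell more steeply, with the third Day 10 replicate far above the other Day 10 libraries. Gene 918032 had 14.34, 14.17 and 16.44 at Day 10 and 10.78, 10.27 and 10.22 at Day 15, a log2 fold change of -4.95 (SE 0.54, adjusted p = 7.0e-05) that was -3.82 without that replicate. Gene 1110945 had 12.31, 12.16 and 13.97 and then 9.41, 8.77 and 8.30 (-4.18, SE 0.45, or -3.36 without it). Gene 1359988 had 10.01, 9.57 and 11.29 and then 7.42, 7.83 and 6.99 (-3.06, SE 0.39, or -2.39 without it). Even the lowest Day 10 library lay above every Day 15 library in all 3 genes. The fitted fold change compares mean counts, so it exceeds the difference of mean log2 levels where 1 library is far above the others. The fall of VP 935251, a gene of lower level, was smaller (8.76, 8.72 and 9.29, then 8.19, 8.16 and 8.39, log2 fold change -0.70, adjusted p = 0.0042).

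The other VP genes did not pass the test. VP 1412926 had 17.09, 17.27 and 16.75 at Day 10 and 16.85, 16.85 and 16.87 at Day 15 (-0.20, SE 0.16, adjusted p = 0.40). VP 897918 had 16.70, 17.12 and 16.47 and then 16.64, 16.46 and 16.38 (-0.29, SE 0.15, adjusted p = 0.17), and was called lower without the third Day 10 replicate (-0.43, adjusted p = 0.021). Both days overlapped in both genes.

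Short MnPs oxidize manganese, whose chelates then act on lignin at a distance. The steepest falls were those of 1487292, from 12.14, 12.23 and 14.44 to 8.40, 8.15 and 8.07 (-5.16, SE 0.56, adjusted p = 6.7e-05, or -3.99 without the third Day 10 replicate), and of 1487289, from 11.37, 11.40 and 13.59 to 8.30, 7.86 and 7.87 (-4.52, SE 0.54, adjusted p = 0.00012, or -3.38 without it). Both are short gene models of 371 and 324 bases, where the other AA2 models span 1304 to 2237. The study marks both as C-terminal fragments. Gene sequences were not compared here, so reads shared with related genes may be lost under unique mapping. Gene 1486819 fell evenly, from 14.74, 14.94 and 14.31 to a mean of 12.89 ± 0.18 (SD, n = 3, log2 fold change -1.79, SE 0.16, adjusted p = 1.8e-05). The remaining falls, of 1363610 (-0.71) and 1418086 (-0.93), were at levels of at most 8.04.

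One short MnP gene moved the other way. The levels of 1347226 were 15.47, 15.83 and 14.19 at Day 10 and 16.30, 16.37 and 16.13 at Day 15, a log2 fold change of 0.96 (SE 0.28, adjusted p = 0.025). All Day 15 libraries were above all Day 10 libraries, but the call was lost without the first or the second Day 15 replicate (adjusted p = 0.063 and 0.082), and the value was 0.60 without the third Day 10 replicate. Short MnP 1185543 had 16.22, 16.37 and 14.46 at Day 10 and 16.05, 16.16 and 16.02 at Day 15, with an adjusted p of 0.74 and a direction that rested on the third Day 10 replicate (0.18 with it and -0.23 without it). Short MnP 1340324 (15.47 to 16.27 at Day 10 and 15.56 to 15.86 at Day 15) was called lower only without that replicate (-0.22 with it, -0.42 and adjusted p = 0.010 without it), and 855582 differed by -0.06 (adjusted p = 0.81).

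**Figure D3:**
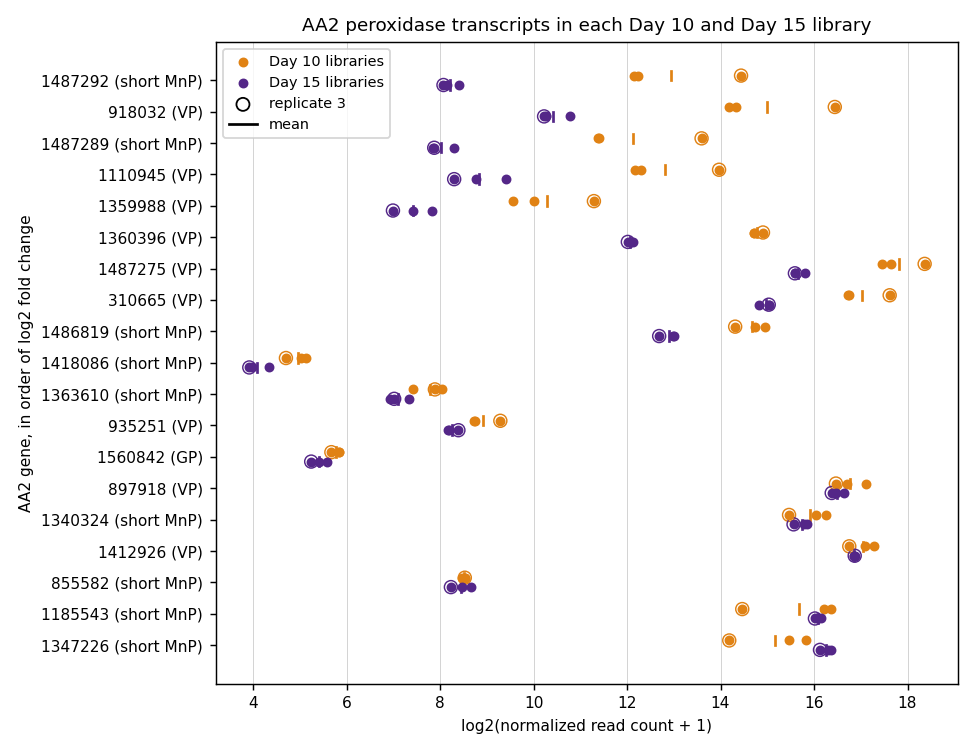
Log2 normalized read count (horizontal axis) of each AA2 gene (vertical axis, in order of log2 fold change) in each Day 10 (orange) and Day 15 (purple) library, with short bars for the means and rings around replicate 3. The third Day 10 replicate lies to the right of the other Day 10 libraries in the genes with the largest falls, such as 1487292 (14.44 against 12.14 and 12.23), and to the left in 1185543 and 1347226.

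The make-up of the AA2 transcript pool changed with these falls. The 9 VP genes held 72.5%, 71.8% and 86.1% of the AA2 counts in the Day 10 libraries and 59.8%, 56.4% and 60.2% in the Day 15 libraries. Gene 1487275 went from 25.8% ± 6.32 of the AA2 counts (SD, n = 3) to 10.1% ± 0.67 (SD, n = 3), and 1412926 from 15.0% ± 3.65 to 23.1% ± 1.27. Short MnP 1347226 went from 4.56% ± 2.40 to 15.4% ± 0.83, and 1185543 from 6.92% ± 4.08 to 13.5% ± 0.69. These shares are fractions of 1 pool, so a fall of 1 gene raises the others.

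Of the AA2 genes that fell, 5 (VPs 1487275, 1110945 and 1359988 and short MnPs 1487289 and 1487292) lie within 35 consecutive gene models of the RefSeq annotation table. Of the 21 other genes of that stretch that were tested, 2 fell and 2 rose, near the shares over all genes tested (12.4% and 11.7%). This stretch was chosen after its values were seen.

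All 3 AA5_1 copper radical oxidase genes used here fell (median -0.90), beside 12.4% of all genes tested. In the highest class of level, where 713930 and 1557562 lie, 20.4% fell. Of all genes that had been higher at Day 4 than in the control, 22.4% fell. Genes 713930 and 1557562 come from the study's list of CAZymes raised at Day 4, and 1353775 from its list of secreted enzymes. Both lists were drawn up on these cultures, so the 3 genes need not be the whole family. AA5_1 gene 713930, which held more counts than any other gene at Day 10, had 18.38, 18.36 and 18.20 at Day 10 and 17.29, 17.57 and 17.36 at Day 15 (log2 fold change -0.90, SE 0.11, adjusted p = 0.00018). Gene 1353775 went from 10.75, 10.76 and 12.11 to 8.83 to 9.11 in the Day 15 libraries (-2.39, SE 0.30, adjusted p = 0.00018, or -1.78 without the third Day 10 replicate). Gene 1557562 went from 17.36, 17.51 and 17.04 to 16.76, 16.95 and 16.80 (-0.48, SE 0.15, adjusted p = 0.033). No AA5_1 gene had overlapping days, as was the case for 96.3% of the genes that fell in the whole table. The call of 1557562 was lost in 6 of the 11 fits that left out 1 library (adjusted p = 0.057 to 0.102). Each Day 10 or Day 15 library but the third of Day 10 was among those left out.

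Of 36 AA3 genes, 33 were tested (median -0.41), of which 14 fell, beside 12.4% of all genes tested, and 2 rose, beside 11.7%. The 3 AA3 genes that were not tested were near or at 0 in every library. By subfamily, 12 of 29 tested AA3_2 genes, which include aryl alcohol and glucose oxidases, fell and 2 rose, 2 of 3 AA3_3 alcohol oxidases fell, and the AA3_4 gene did not pass. Of the 12 AA3 genes with a predicted secretion signal, 5 fell and 1 rose. Without the second Day 15 replicate, 9 AA3 genes fell, and without the third Day 10 replicate, 12 fell and the median was -0.29, with the calls of AA3_2 genes 1399257 and 1483588 lost (adjusted p = 0.060 and 0.10).

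AA3_2 gene 1422328 had the largest fall of the family, from 16.15, 16.17 and 17.23 to 14.70, 14.72 and 15.06 (-1.78, SE 0.25, adjusted p = 0.00035). AA3_2 gene 1538961 went from 11.92, 12.19 and 12.32 to 10.84, 10.76 and 10.86 (-1.34, SE 0.11, adjusted p = 1.1e-05), and 1399288 from 13.75, 13.72 and 14.29 to 13.13, 13.49 and 13.38 (-0.61, adjusted p = 0.010, or -0.40 without the third Day 10 replicate). Day 15 was below Day 10 in every library of these 3 genes. AA3_3 gene 1364967 went from 15.85, 16.15 and 16.43 to 15.69, 15.71 and 15.72 (-0.46, adjusted p = 0.025), a call that was lost without any 1 of the Day 15 replicates (adjusted p = 0.068 to 0.078). AA3_2 gene 1343556 was level, at 13.17 to 13.37 at Day 10 and 13.18 to 13.37 at Day 15. The 2 that rose, 1349968 (0.68, adjusted p = 0.015) and 1414090 (0.42, adjusted p = 0.037), lost their calls without single libraries (1 of 11 fits for 1349968, without the third Day 15 replicate, adjusted p = 0.052, and 6 of 11 for 1414090, adjusted p = 0.057 to 0.120). The value of 1349968 was 0.44 without the third Day 10 replicate.

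The cellobiose dehydrogenase gene 1364243 (AA8-AA3_1), whose enzyme oxidizes cellobiose and can pass electrons to LPMOs, went from 10.88, 10.43 and 11.06 to 9.63, 9.20 and 8.99 (log2 fold change -1.52, SE 0.18, adjusted p = 0.00012). Both days were apart in all libraries.

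Of 13 cellulose-active genes, 10 fell and 1 rose (median -1.18), beside 12.4% and 11.7% of all genes tested. In the highest class of level, where most of these genes lie, 20.4% fell and 20.4% rose. Of all genes that had been higher at Day 4 than in the control, 22.4% fell and 8.47% rose. The 13 genes come from the study's list of CAZymes raised at Day 4, which was drawn up on these samples. They were grouped here by whole CAZy family. Cellobiohydrolases release cellobiose from chain ends. The GH6 gene 1477052 went from 14.05, 13.58 and 13.67 at Day 10 to 12.08, 11.95 and 11.65 at Day 15 (-1.88, SE 0.15, adjusted p = 7.3e-06), and the GH7 gene 1347545 from 15.83, 15.11 and 15.53 to 14.20, 14.41 and 13.45 (-1.45, SE 0.23, adjusted p = 0.00080). A second GH7 gene, 355477, had a larger and less certain fall, from 8.94, 8.66 and 10.93 to 6.82, 8.36 and 7.12 (-2.32, SE 0.54, adjusted p = 0.0074), which was -1.25 without the third Day 10 replicate. All Day 15 libraries were below all Day 10 libraries in these 3 genes.

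Genes of family AA9 encode LPMOs, which cleave cellulose by oxidation. The study's Day 4 list holds 5 of them, not all AA9 genes of the genome, and these did not move together. Of these, 4 fell, by -1.48 (1420749), -1.15 (1452362), -1.06 (1456024) and -0.87 (1339229) on the log2 scale. Gene 1452362 had 13.54, 13.26 and 13.10 at Day 10 and 12.67, 12.04 and 11.58 at Day 15 (adjusted p = 0.0028), and 1339229 had 14.71, 14.46 and 14.41 and then a mean of 13.60 ± 0.52 (SD, n = 3, adjusted p = 0.0078). The fifth, 1403153, rose from 13.14, 13.10 and 12.60 to 13.54, 13.87 and 13.46 (0.66, SE 0.14, adjusted p = 0.0051). In each of the 5 genes both days were apart. The endoglucanase families GH5, GH12 and GH131 gave falls of -1.57 (GH5 1401866), -1.18 (GH12 1351738) and -1.43 (GH131 492772), while GH5 gene 1412845 had 13.90, 13.49 and 13.43 and then 14.10, 13.95 and 13.83 (0.34, adjusted p = 0.070). That gene was called higher by DESeq2's Wald test (adjusted p = 0.038) and without the first Day 10 replicate (0.50, adjusted p = 0.0059). GH5 gene 1063890 (-0.38, adjusted p = 0.083) was called lower without the third Day 10 replicate (-0.53, adjusted p = 0.011).

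The 17 genes of families acting on hemicellulose and pectin, from the same list, split in direction, with 6 rises, 5 falls and 6 genes not called (median 0.12). Among all genes tested in the highest class of level, where these 17 lie, 20.4% rose and 20.4% fell. The 6 rises of the list were in GH27, CE12, CE16, GH2, GH28 and GH10. GH27 gene 1498325, of a family of alpha-galactosidases, went from 14.69, 14.63 and 14.32 to 15.68, 16.03 and 15.79 (1.28, SE 0.12, adjusted p = 2.5e-05). CE12 gene 832761, of a family of pectin and xylan acetylesterases, went from 14.76, 14.44 and 13.59 to 15.40, 15.81 and 15.65 (1.29, SE 0.22, adjusted p = 0.0013). The others were CE16 1412498 (0.94), GH2 1437352 (0.96, or 0.61 without the third Day 10 replicate), GH28 1447784 (0.77), of the polygalacturonases that cut pectin, and GH10 1520578 (0.49). The other CE16 genes, 1395444 (0.32) and 1404492 (-0.40), were not called, though 1404492 was called lower without the third Day 10 replicate (-0.54, adjusted p = 0.028). In each of the 6 genes that rose the third Day 10 replicate was the lowest library.

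The falls were in GH10, the endoxylanases that cut the xylan backbone, and in CE1, a family of acetyl xylan and feruloyl esterases. GH10 gene 1486161 went from 13.44, 13.31 and 15.23 to 10.39, 10.03 and 10.71 (-3.89, SE 0.45, adjusted p = 0.00010, or -2.98 without the third Day 10 replicate). GH10 gene 659690 went from 12.27, 11.87 and 12.61 to 10.30, 10.06 and 10.05 (-2.14, SE 0.17, adjusted p = 1.1e-05). The CE1 genes 1456088 and 139112 fell by -1.97 (-1.24 without the third Day 10 replicate) and -1.71 on the log2 scale. Of the 4 GH10 genes on the list, 3 thus fell (-3.89, -2.14 and, for 16190, -0.37) and 1 rose.

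Of the 8 other glycoside hydrolase genes of that list, 2 fell and 2 rose (median 0.0033), beside 12.4% and 11.7% of all genes tested. In the highest class of level, where most of these 8 lie, 20.4% fell and 20.4% rose. The GH18 gene 1351991, of a family of chitinases that also act on the fungus's own cell wall, went from 11.36, 10.87 and 11.76 to 9.73, 9.70 and 9.61 (-1.70, SE 0.17, adjusted p = 4.5e-05). Of the GH3 genes, a family of beta-glucosidases and beta-xylosidases, 593055 went from 11.01, 10.33 and 10.71 to a mean of 9.06 ± 0.052 (SD, n = 3, log2 fold change -1.66, SE 0.15, adjusted p = 2.2e-05). Both falls left no overlap between days. The rises of GH3 224000 (0.51, adjusted p = 0.039) and GH15 1349191 (0.43, adjusted p = 0.040) were lost in 6 and 8 of the 11 fits without 1 library, among them those without any 1 of the Day 15 replicates (adjusted p up to 0.112 and 0.153), and were 0.29 and 0.27 without the third Day 10 replicate.

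**Figure D4:**
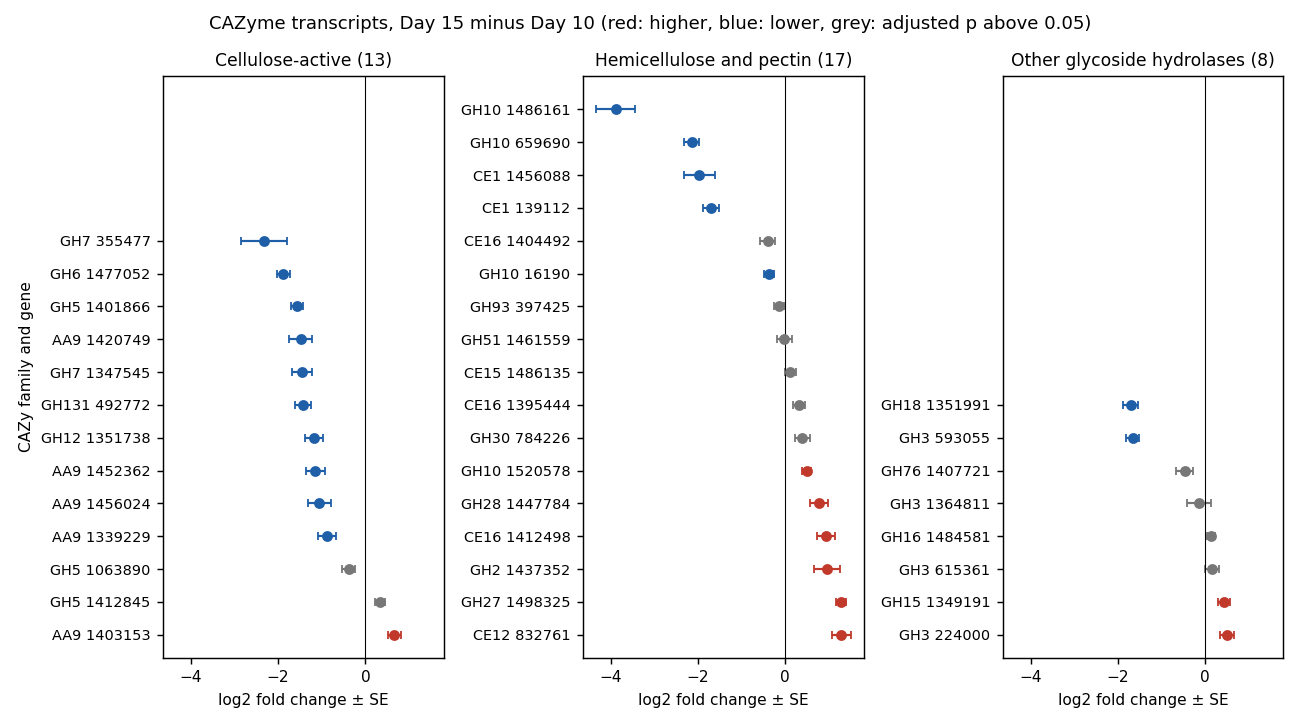
Log2 fold change between Day 15 and Day 10 with its standard error (horizontal axis) for each gene of the 3 CAZyme groups (vertical axis, with CAZy family), red where it rose, blue where it fell and grey where it did not pass the test. In the cellulose-active group 10 of 13 genes lie to the left of 0 as called falls, whereas the hemicellulose and pectin group has 6 called rises and 5 called falls.

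Genes of uptake and detoxification came from the study's list of genes with high transcription throughout SSF, so their high levels on both days follow from that choice. Of 14 transporters of the major facilitator superfamily (MFS), which move sugars and other small molecules across membranes, 5 rose and 3 fell (median 0.17). Over all genes tested, 11.7% rose and 12.4% fell. In the highest class of level, where most of these transporters lie, 20.4% rose and 20.4% fell. Gene 334352 went from 13.52, 13.68 and 12.82 to 14.52, 14.49 and 14.42 (1.09, SE 0.17, adjusted p = 0.00060), and 540241 from 14.30, 14.65 and 14.28 to 15.04, 15.20 and 15.14 (0.71, SE 0.12, adjusted p = 0.00097). Both rose in every library. The 3 MFS falls were small (-0.24 for 1487694, -0.38 for 1422437 and -0.35 for 1451844, adjusted p = 0.045 to 0.048). Without the third Day 10 replicate, 1422437 and 1451844 were not called (adjusted p = 0.10 and 0.095) and MFS gene 40616 was called higher (0.29, adjusted p = 0.029). The number of falls was 0 to 2 in the 11 fits without 1 library.

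Of 11 cytochrome P450 genes, monooxygenases that act on many aromatic compounds, 3 fell and none rose (median -0.06). Over all genes tested 24.1% were called. In the highest class of level, where these P450 genes lie, 20.4% fell and 20.4% rose. The largest P450 falls were those of CYP512 gene 1361826, from 13.91, 13.74 and 13.45 to 13.15, 13.12 and 13.05 (-0.61, SE 0.12, adjusted p = 0.0028), and CYP5136 gene 1402446, from 13.32, 13.15 and 12.84 to 12.67, 12.71 and 12.65 (-0.44, SE 0.11, adjusted p = 0.012). The third was CYP53 gene 1398198 (-0.32, adjusted p = 0.047), a call that was lost without the third Day 10 replicate (-0.29, adjusted p = 0.066), while CYP512 gene 1228724 (-0.26, adjusted p = 0.12) was called lower without it (-0.39, adjusted p = 0.0050). Of 4 glutathione S-transferase (GST) genes, which conjugate glutathione to reactive compounds, 1 rose and 3 were not called. Gene 1357910 had 15.95, 16.12 and 15.60 and then 16.24, 16.58 and 16.34 (0.48, SE 0.15, adjusted p = 0.029), a call that was lost in 6 of 11 fits without 1 library (adjusted p = 0.050 to 0.128).

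As a reference, 20 single-copy genes of the study's phylogeny had log2 fold changes from -0.34 to 0.20 (median -0.07), and none was called by edgeR's quasi-likelihood test. Over all genes tested, 24.1% were called. Of the single-copy genes, 5 had an unadjusted p under 0.05, and DESeq2's Wald test called 1 lower and the fit without the second Day 10 replicate 5.

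The share of all counts that each group held gives the size of these changes in the sequenced transcript pool. AA2 genes held 2.86%, 3.22% and 3.73% of the counts at Day 10 and 1.90%, 1.74% and 1.70% at Day 15. AA5_1 genes went from 1.80%, 1.82% and 1.60% to 0.96%, 1.08% and 0.99%, AA3 genes from 0.71%, 0.74% and 1.17% to 0.48%, 0.47% and 0.51%, and cellulose-active genes from 0.57%, 0.41% and 0.47% to 0.30%, 0.29% and 0.21%. Genes for hemicellulose and pectin went from 0.99%, 0.87% and 0.91% to 1.04%, 1.19% and 1.13%, and MFS genes from 0.44%, 0.46% and 0.43% to 0.53%, 0.54% and 0.55%. In each of these 6 groups all Day 15 libraries lay on the same side of all Day 10 libraries.

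Short MnP genes, by contrast, held 0.74% ± 0.20 at Day 10 and 0.73% ± 0.048 at Day 15 (SD, n = 3 each), with the second Day 10 replicate highest (0.91%) and the third lowest (0.52%). P450, GST, other glycoside hydrolase and single-copy genes had overlapping shares. An exact two-sided permutation test of 3 against 3 libraries cannot go below p = 0.10, which was the value for all groups without overlap (0.16 after Benjamini-Hochberg adjustment over 13 groups), so no share passed 0.05.

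**Figure D5:**
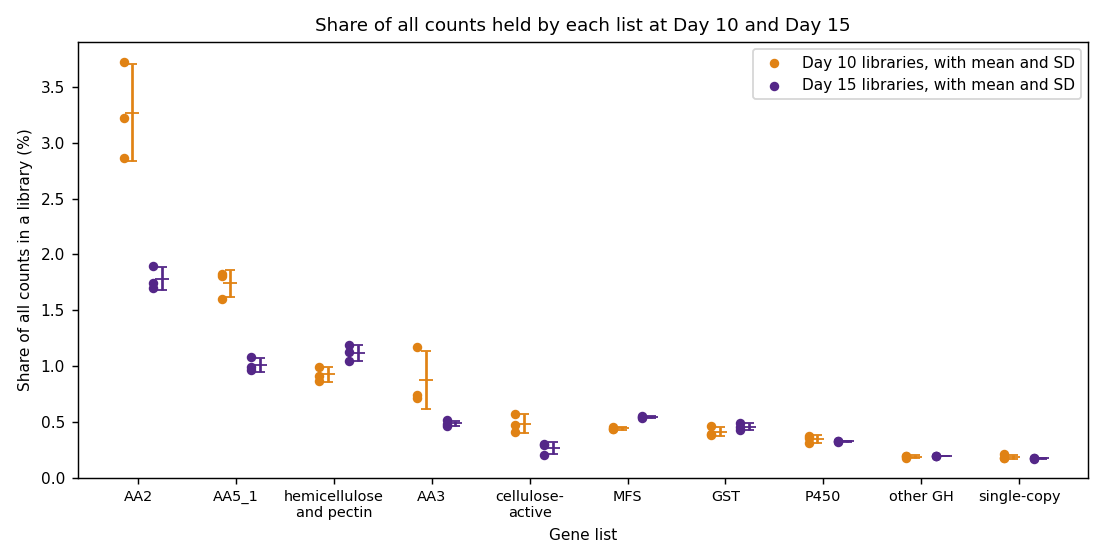
Share of all counts in a library (vertical axis, in percent) held by each gene list (horizontal axis), with points for the 3 Day 10 (orange) and 3 Day 15 (purple) libraries and the mean with its SD beside them. AA2 genes went from 2.86% to 3.73% at Day 10 to 1.70% to 1.90% at Day 15, and the AA5_1, AA3 and cellulose-active lists also fell without overlap.

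Outside these lists, genes carry only a protein number in the files, with no product name, so no role is given for them. The 6 largest rises among genes with a mean of at least 100 normalized counts and no overlap between days were 1459478 (log2 fold change 3.60), 1405513 (2.74), 1363444 (2.29), 1478522 (2.20), 1555756 (2.14) and 1409925 (2.12). Gene 1405513 was even within each day, at 7.59, 7.66 and 7.43 and then 10.41, 10.32 and 10.17 (SE 0.13, adjusted p = 1.2e-07), as was 1478522, at 9.60, 9.93 and 9.52 and then 11.79, 11.97 and 11.90 (SE 0.11, adjusted p = 1.3e-07). Gene 1459478 had 11.10, 10.88 and 8.53 and then 13.88, 14.60 and 13.80 (SE 0.51, adjusted p = 0.00039). The third Day 10 replicate was again the lowest library in that gene.

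The 6 largest falls by the same rule were 1417350 (-5.09), 548028 (-4.19), 1471028 (-4.12), 1052277 (-3.97), 162190 (-3.77) and 1111091 (-3.70). In all 6 the third Day 10 replicate was the highest library, and without it the values were -3.13, -3.85, -0.89, -2.78, -3.11 and -2.60. Gene 1471028, with 6.34, 5.67 and 10.73 at Day 10 and 5.04, 4.86 and 5.44 at Day 15, thus rested mostly on that library, and its call was also lost without any 1 of the Day 15 replicates (adjusted p = 0.051 to 0.064). Gene 548028 kept most of its fall, from 12.81, 11.56 and 13.19 to 8.88, 8.43 and 8.05.

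The largest gain in CPM, a gene's counts scaled to a common library size, was that of gene 1409925, at 18.14, 17.66 and 16.29 log2 normalized read counts at Day 10 and 19.41, 19.96 and 19.61 at Day 15 (log2 fold change 2.12, SE 0.38, adjusted p = 0.0017). It went from 0.68% ± 0.37 to 2.89% ± 0.48 of all counts (SD, n = 3 each) and held more counts than any other gene at Day 15. Counts are not scaled to gene length. Gene 1396291 went from 16.82, 16.83 and 16.24 to 17.73, 17.98 and 17.79 (1.18, adjusted p = 0.00021), and 1559509 from 16.21, 16.72 and 15.11 to 17.53, 17.41 and 17.45 (1.31, adjusted p = 0.0061). These 3 genes had no overlap between days, as was the case for 99.1% of the genes that rose in the whole table. The next gains were those of 1560534 (0.90), 1466469 (2.05) and 1359157 (0.73, or 0.48 without the third Day 10 replicate), of which 1560534 lost its call in 7 of 11 fits without 1 library (adjusted p = 0.053 to 0.098) and was 0.56 without the third Day 10 replicate. The largest losses in CPM were VP 1487275, AA5_1 713930, VP 310665, AA3_2 1422328, the unlisted gene 1349757 (15.39, 15.41 and 16.85, then 13.79, 13.59 and 13.73, -2.36, adjusted p = 0.00026) and AA5_1 1557562, so 5 of the 6 were auxiliary activity enzymes.

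The study's limit for high transcription, a mean log2 normalized read count above 12, was applied here to each gene. The study applied it to means over groups of genes with similar transcription, so its counts are not comparable. By the limit for each gene, 1214 genes were highly transcribed at Day 10 and 1263 at Day 15, and 1063 were on both days. The limit was passed at Day 10 alone by 151 genes, of which 120 were called lower, and at Day 15 alone by 200, of which 143 were called higher. Of the 19 AA2 genes, 13 were above it at Day 10 and 9 at Day 15, and of the 13 cellulose-active genes, 7 and 5. For hemicellulose and pectin genes the counts were 17 and 14, and for MFS genes 12 and 13. They were 11 on both days for P450 genes and 5 on both days for other glycoside hydrolase genes. Of the 10 genes with the most counts on each day, 7 were shared. VPs 1487275 and 310665 were among those of Day 10 alone, and genes 1396291 and 1559509 among those of Day 15 alone.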

How the data were processed

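The deposited counts are reads per predicted gene, made by the authors: reads were checked with FastQC, trimmed with Sickle, aligned by TopHat2 against a *P. brumalis* monokaryon genome, keeping unique mappings, and HTSeq counted them. Strand mode and the TopHat and HTSeq versions: not given in the sources used here. DESeq 1.5 is named in the submitters' processing notes. Members of a family with near-identical sequence may lose reads under unique mapping.

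All 11 libraries were fitted together in edgeR 4.0.16 (R 4.3.3), with a mean for each of 4 groups and 7 degrees of freedom left for the spread, after TMM scaling and filterByExpr (minimum count of 10, minimum total of 15). Quasi-likelihood F tests were adjusted by Benjamini-Hochberg at 0.05. Standard errors were derived from F as the size of the log2 fold change over the root of F. Levels are log2(count over size factor + 1), with size factors from DESeq2 1.42.0, given per library in replicate order, and as mean ± SD over libraries elsewhere. P-values cover the spread between these libraries. Shares were compared with exact permutation tests (scipy 1.17.1).

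The gene lists are the study's (AA2, AA3, its Day 4 CAZymes, its highly transcribed core genes, and single-copy genes). AA5_1 genes were taken from its Day 4 CAZymes and its secreted enzymes. The comparison, the lists and their members were chosen with earlier results of these data known. Genes named are the study's secreted auxiliary activity enzymes, other genes it names by number, the 2 largest rises and falls of each list, the 6 largest of genes in no list and the 6 largest gains and losses of CPM, among genes that passed, and others were named after their values were seen. Protein numbers matched 18240 of 18244 locus tags of the RefSeq annotation (assembly Polbr1), used only for gene order and span.

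Alternatives were other scaling (DESeq2 size factors, library totals), the DESeq2 Wald test, no filter or a minimum count of 50, only both days, a replicate block, a fold minimum, thinning to the smallest total, and each library left out.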

Additional observations from a re-analysis of the deposited data

How the results depend on the processing

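The counts of genes higher and lower at Day 15 stayed within 1.5 times of 1810 and 1915 under all alternatives run except the fold minimum of 1 (log2 scale; 14 and 77, stricter by construction) and the fit without the second Day 15 replicate. Without 1 library they ranged from 1154 to 1968 and from 1200 to 2187. DESeq2's Wald test gave 1999 and 2111. Of 65 genes described by the naming rule, 59 were called, 45 under every alternative other than the fold minimum. Apart from genes the study lists or names, the rule admitted only called genes and took the largest changes. These counts thus follow in part from that choice and do not describe called genes in general. The cause of the moves below was not tested.

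With the fold minimum, 0 AA3, GST or MFS genes changed in either direction, 0 AA2, cellulose-active, hemicellulose and pectin or other glycoside hydrolase genes rose, 0 P450 genes fell, and 1 AA5_1, 2 cellulose-active and 3 hemicellulose and pectin genes fell. DESeq2's Wald test gave an AA3 median of -0.34, called 2 cellulose-active and 1 P450 gene higher and called 1 GST and 1 single-copy gene lower. Library totals called 1 single-copy gene lower and turned AA3_2 gene 1343556 to -0.027. Without a filter the AA3 median was -0.34. With both days alone, 0 AA2, other glycoside hydrolase or GST genes and 1 AA3 gene rose, and 1 P450 and 0 MFS genes fell. Thinning gave an AA2 median of -0.98 and 2 single-copy genes lower. The MFS share difference was 0.12 percentage points with TMM library sizes. Limits of 11 and 13 in place of 12 left 2598 and 582 genes above at Day 10 and 2533 and 598 at Day 15, with 343 and 99 above at Day 10 alone and, for 13, 115 at Day 15 alone.

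No source states that a replicate number pairs libraries. Deviations of same-numbered Day 10 and Day 15 libraries correlated at 0.070, 0.064 and 0.042 over all genes tested, and at 0.26, 0.24 and 0.15 over 8673 genes with a mean level above 8, and each library correlated best with its own number, a hint from the data and not from the design. A replicate block over all 11 libraries gave 2073 genes higher and 2144 lower, with 2 cellulose-active and 2 P450 genes higher and 2 GST and 3 single-copy genes lower, and called GH5 genes 1412845 higher (adjusted p = 0.035) and 1063890 lower (adjusted p = 0.018). A replicate block over both days alone gave 1478 and 1437, with 1 AA3 and 1 other glycoside hydrolase gene higher and 0 MFS genes lower, and 11 AA2 genes lower, since 1418086 was not called (adjusted p = 0.11). GH28 1447784 (0.051), AA5_1 1557562 (0.056), AA3_3 1364967 (0.074) and CYP53 1398198 (0.087) were among others not called there, by adjusted p.

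Without 1 library in turn, the counts of genes that rose ranged from 0 to 1 (AA2), 0 to 2 (AA3, P450 and other glycoside hydrolases), 0 to 1 (GST) and 1 to 2 (cellulose-active). Those that fell ranged from 9 to 14 (AA3), 0 to 1 (GST), 0 to 2 (MFS) and 0 to 5 (single-copy). Medians ranged from -1.07 to -0.83 (AA2), -0.43 to -0.29 (AA3) and -0.13 to 0.17 (other glycoside hydrolases). Of genes higher at Day 4, 14.8% to 24.2% fell and 5.04% to 9.56% rose, and of genes lower at Day 4, 5.03% to 9.39% fell and 13.9% to 21.8% rose. Genes not called turned direction, namely 1343556 (-0.052 without the second Day 10 and -0.040 without the third Day 15 replicate, range -0.052 to 0.053), 1185543 (-0.23 without the third Day 10 replicate, range -0.23 to 0.47) and 855582 (0.054 without the third Day 15 replicate, range -0.16 to 0.054).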

Other observations

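Genes that changed lay next to each other more often than the counts over all genes would give. In the gene order of the RefSeq annotation, the gene that followed a gene called lower at Day 15 was itself called lower in 20.7% of 1822 pairs and called higher in 8.45%, where 12.6% of all following genes were lower. After a gene called higher, the next was higher in 20.7% of 1706 pairs and lower in 8.44%, where 11.7% of all following genes were higher. The library kit does not mark strand, so reads where neighbours overlap cannot be told apart. Among pairs whose gene models do not overlap, the next gene was also lower in 19.0% of 1579 pairs, where 12.9% of all such following genes were lower. It was also higher in 16.5% of 1421 pairs, where 11.4% of all such following genes were higher. Neighbours share sequence context and were not tested as independent genes, so these are descriptions.

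The longest run of consecutive genes that fell held 6 genes within 7331 bases, 1397848 (log2 fold change -3.20), 973109 (-0.96), 1340841 (-1.61), 972531 (-1.40), 1478807 (-1.55) and 973672 (-0.92). Gene 1397848 had a mean level of 15.02 at Day 10 and 11.85 at Day 15. The longest run of genes that rose held 5, of which 1417916 rose most (1.04, from a mean level of 12.52 to 13.65). In each run 1 pair of neighbours overlapped. None of these genes is in a list used here, they carry no product name in the files, and their values were known when they were chosen.

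Few genes were counted on 1 day alone. A count of 0 in all 3 Day 10 libraries and a count above 0 in all 3 Day 15 libraries was found for 8 genes, and the reverse for 7, with means of at most 5 counts, so none was a strong change. A count of 0 in all 6 libraries was found for 2062 genes.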
